A study of Mus musculus with 4 samples.

Results

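A set of 10 genes of lipoprotein and cholesterol export were followed in primary mouse neural stem cells with and without depletion of the nucleoporin Seh1: the apolipoprotein genes Apoe and Clu, the exporter genes Abca1 and Abcg1, the liver X receptor (LXR) genes Nr1h2 and Nr1h3, and Mylip, Lpcat3, Lrp1 and Abhd3. They are 10 of 17621 genes in the files. Each was found by its gene ID, and its expected read counts were summed over transcripts. The set was chosen by its biology and on earlier results from these same libraries, in which the ratios of Apoe, Clu and Abca1 stood out, so all their ratios are descriptions and none was tested.

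The study asked what Seh1 depletion does to gene expression in proliferating and in differentiating neural stem cells. Cells came from the cortex of newborn mice and grew on laminin and poly-L-ornithine. Control cells (Ctrl) had the genotype Seh1 f/f, and depleted cells (iKO) had cmv-cre-ert,seh1 f/f, so that all 4 libraries carried the floxed alleles and the iKO libraries alone carried the recombinase, whose label names the CMV promoter. Each genotype was sampled at day 0, in growth medium with EGF and bFGF, and at day 3, after both factors were withdrawn. The labels do not say whether an inducer was added, or whether a culture came from 1 animal or a pool. Each of the 4 groups is 1 library, with 19611788 to 21040590 expected counts, so differences cannot be set against a spread between replicates, and no p-values are given. Seh1l, the targeted gene, was 2.10-fold lower in iKO than in Ctrl at day 0 and 3.01-fold lower at day 3. All 12 neural stem and progenitor markers on the list were measured, with a summed level of 5547 to 6582 CPM (counts scaled to a common library size) per library.

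LXRs are nuclear receptors that bind oxysterols and, paired with a retinoid X receptor (RXR), switch on genes that move cholesterol out of cells. ABCA1 and ABCG1 load cholesterol and phospholipid onto apolipoprotein particles, which in the brain are built mainly by astrocytes around APOE and clusterin, also called apolipoprotein J. Cells take these particles up through lipoprotein receptors such as LRP1, and MYLIP (IDOL), itself an LXR target, marks some of these receptors for breakdown.

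An LXR response element is a pair of six-letter repeats, AGGTCA and AGGTCA, separated by any 4 letters. The stretches closest to it on either strand were searched in the 250 bases before each start site of the RefSeq promoter table (GRCm38.p6). The search covered 7 of the 10 genes. Clu and Abcg1 had no matched entry, and Abhd3 was left out by choice. A window of 30 bases is shown for 3 genes, because Abca1 and Apoe carry the main results and Srebf1 is a textbook LXR target. Each is written 5′ to 3′ on the strand where the closest stretch lies. The capitals mark the genome's letters at the places of the 2 repeats, whether or not they match.
Abca1 (chr4:53159940-53159969, plus strand): agcgccgGGGTTActacCGGTCAaacgctg
Srebf1 (chr11:60210631-60210660, plus strand): cgcgctgGGGTTActggCGGTCActgtcgt
Apoe (chr7:19699392-19699421, minus strand): ggatcccAGAACAacgaTCTTCAccccaga

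The Abca1 stretch differed from the motif at 3 of its 12 fixed letters. It lay 67 to 52 bases before the start of the transcript model NM_013454.3, on the strand opposite to the gene. The Srebf1 stretch also differed at 3 letters, 182 to 167 bases before 1 of the gene's 3 listed starts, and its capitals are the same as those of Abca1. The Apoe stretch before the start at 19699188 differed at 5 letters, and the nearest stretches before its other 2 listed starts differed at 4. With up to 4 differences allowed, 70.6% of all promoters held a match, so the Apoe stretches are no closer than those of most promoters. The window shown lies before the start of NM_009696.4 and not that of NM_001305844.1, described below. With up to 3 differences allowed, Abca1 was the only match among the 7 genes, and 18.5% of all 32851 promoters held such a match. The fewest differences were 4 in Nr1h2, Nr1h3 and Lpcat3, 5 in Lrp1 and 6 in Mylip. A match describes letters only, and the lack of one says nothing about binding outside these windows.

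At day 0, 5 of the 10 genes were at least 2-fold higher in iKO than in Ctrl and none was 2-fold lower. Those 5 were Apoe, Clu, Abca1, Abcg1 and Abhd3. A gene was counted when its log2 ratio of CPM plus a pseudocount of 1 reached 1 in size, among the 12976 genes that averaged 1 CPM or more. All 10 genes passed that minimum, and by this measure 2.67% of the 12976 genes were higher at day 0 and 0.331% were lower. At day 3, 2 of the 10 were higher, Clu and Abca1, and none was lower, against 6.28% and 4.78% of all genes. The median log2 ratio of the 10 genes was 1.09 at day 0 and 0.19 at day 3, where the medians of all genes were -0.06 and -0.01. Because the choice of genes drew on these ratios, the shares describe them and are no evidence about the set. In bulk RNA, more cells of a type and more RNA per cell cannot be told apart. Below, every count of genes as higher, lower or 2-fold different uses the log2(CPM + 1) scale, while the folds of single genes are ratios of CPM without the pseudocount, with 95% intervals of counting error only.

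**Figure D1:**
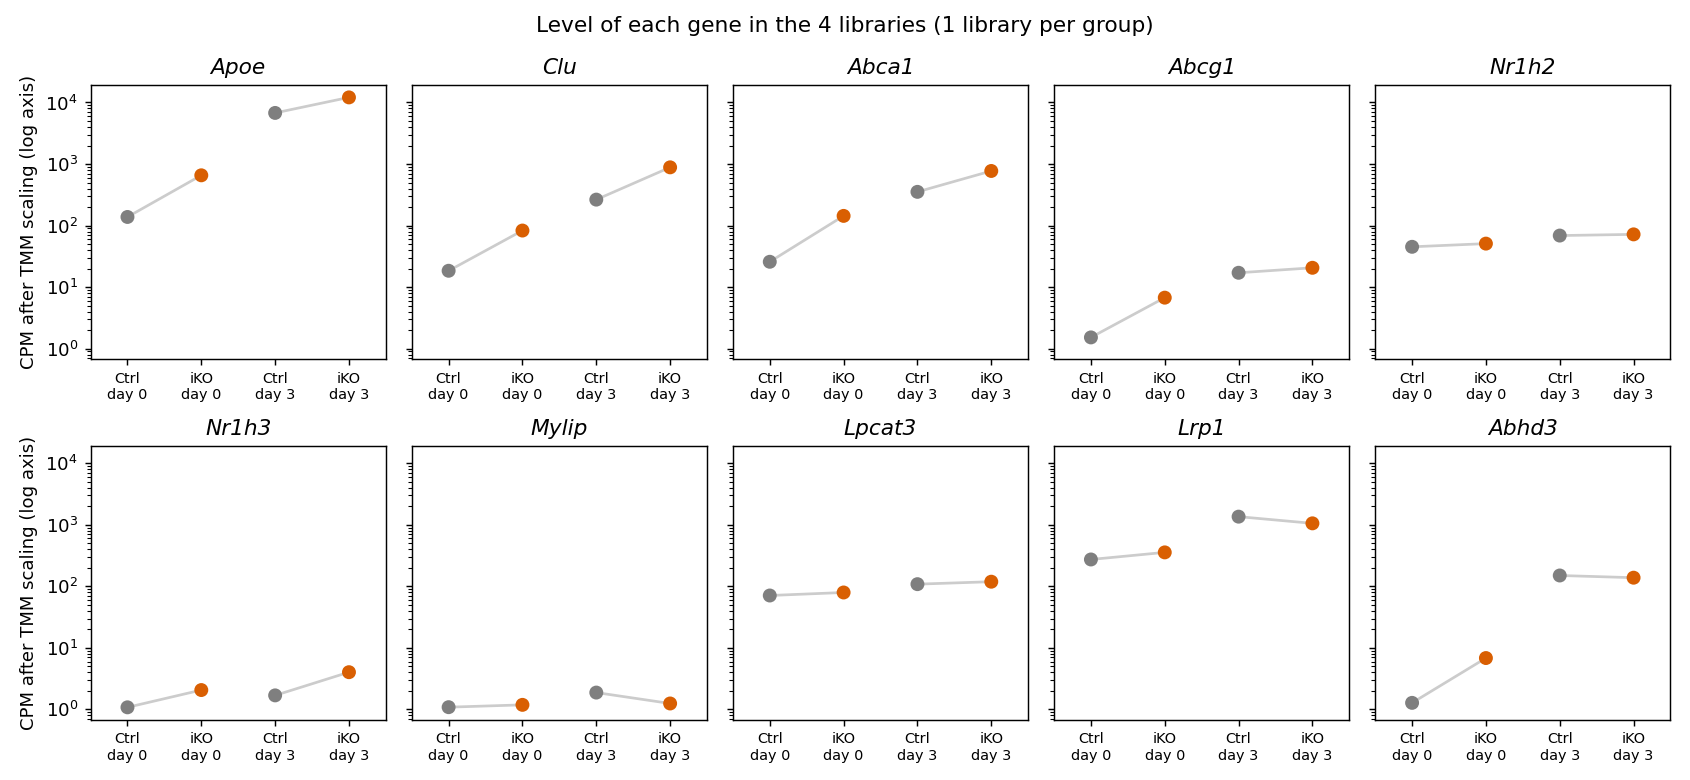
Level of each of the 10 genes in CPM after TMM scaling (log axis), with 1 point per library, Ctrl in grey and iKO in orange, joined within each day. Apoe, Clu, Abca1, Abcg1 and Nr1h3 stand higher in iKO than in Ctrl at both days, and Nr1h2 and Lpcat3 do so by a small margin. Abhd3, Lrp1 and Mylip stand higher at day 0 and lower at day 3.

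Apoe (gene ID 11816, chromosome 7, 19696244 to 19701310, GRCm38.p6) encodes the main lipid carrier protein secreted in the brain. It was at 138 CPM for Ctrl and 656 CPM for iKO at day 0, and at 6765 CPM for Ctrl and 12096 CPM for iKO at day 3. The iKO library was higher at both days, and both day 3 libraries stood far above both day 0 libraries. The iKO level was 4.75-fold the Ctrl level at day 0 (4.56 to 4.95) and 1.79-fold at day 3 (1.78 to 1.80). From day 0 to day 3 Apoe was 49.0-fold higher in Ctrl (47.2 to 50.9) and 18.4-fold higher in iKO (18.1 to 18.8). Apoe took 0.0133% of the expected counts of the Ctrl library at day 0 and 0.0693% of the iKO library. At day 3 its shares were 0.689% in Ctrl and 1.16% in iKO. Ranked by deposited FPKM, a level per transcript length, it was gene 713 of 17621 in Ctrl and gene 97 in iKO at day 0, and first in both libraries at day 3.

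Most genes beside Apoe on chromosome 7 differed by less than 2-fold on the log2(CPM + 1) scale. Of 7 measured neighbours from a list of genes around Apoe, 1 was higher in iKO at each day, and in both cases it was Bcam, the gene of a laminin-binding adhesion receptor. Bcam was at 6.84 CPM for Ctrl and 18.9 CPM for iKO at day 0, and at 11.6 and 36.9 CPM at day 3. Tomm40, the adjacent gene of the mitochondrial import pore, was 1.35-fold lower in iKO at day 0 (1.28 to 1.42), then 1.28-fold higher at day 3 (1.18 to 1.39). Apoc1, a small apolipoprotein gene next to Apoe, was low, at 0.148 CPM for Ctrl and 0.688 CPM for iKO at day 0 and at 1.34 and 2.07 CPM at day 3.

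The transcript models of Apoe were not used in equal measure across the libraries. The authors' expected counts divide the gene among 4 RefSeq models, which GENCODE places at 2 start sites 781 bases apart, 19699188 (NM_009696.4 and NM_001305843.1) and 19698407 (NM_001305844.1 and NM_001305819.1). At day 0 NM_001305844.1 held 47.6% of the gene's counts in Ctrl (45.7 to 49.5, exact Clopper-Pearson) and 58.4% in iKO. At day 3 it held 71.5% in Ctrl and 73.7% in iKO. NM_009696.4 held 48.6%, 39.6%, 28.0% and 25.9% in the same order. Counts of NM_001305844.1 were 5.82-fold higher in iKO at day 0 (5.5 to 6.18) and those of NM_009696.4 3.87-fold (3.65 to 4.11). The models overlap in most of their length, and their counts are estimates, so the intervals do not cover the error of that division.

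**Figure D2:**
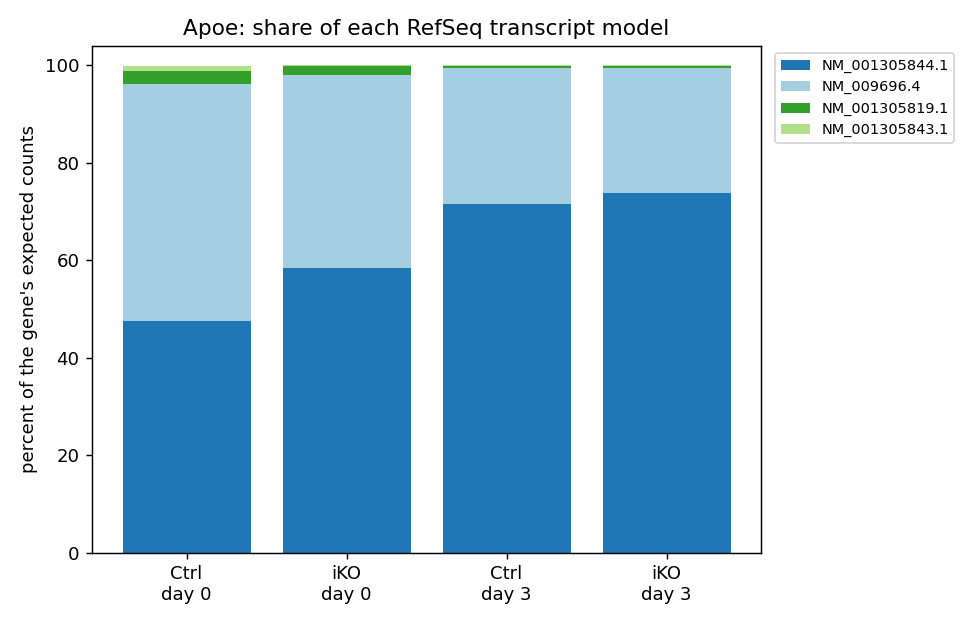
Share of the expected counts of Apoe given to each of its 4 RefSeq transcript models, in percent, 1 stacked bar per library. NM_001305844.1 takes 47.6% in Ctrl at day 0 and 73.7% in iKO at day 3, and each of the 2 minor models takes at most 2.64% in any library.

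Clu (gene ID 12759, chromosome 14, 65968483 to 65981548) encodes clusterin, a secreted chaperone found on brain lipoprotein particles. Its levels were 18.4 CPM for Ctrl and 83.0 CPM for iKO at day 0, and 264 CPM for Ctrl and 884 CPM for iKO at day 3. It was higher in iKO at both days, by 4.50-fold at day 0 (4.03 to 5.05) and 3.35-fold at day 3 (3.24 to 3.45). Over time it was 14.3-fold higher in Ctrl (12.9 to 15.9) and 10.6-fold higher in iKO (10.1 to 11.2). Of the genes at least 2-fold higher at day 0, Clu was the one whose genotype ratio differed least between the days, by -0.37 on the log2 scale. Its 2 main transcript models each held between 35.7% and 63.6% of its counts in every library.

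Other apolipoprotein genes were mostly not detected at a useful depth. Of 16 in the files, 13 had a mean under 1 CPM, and the list summed to 42.5 to 71.8 CPM per library. None of the 3 that passed, Apoc1, Apoo and Apool, reached 2-fold on the log2(CPM + 1) scale at either day. Without the pseudocount Apoc1 was 4.66-fold higher in iKO at day 0, from few counts (1.32 to 25.1). Apoo, a gene of the mitochondrial cristae complex despite its name, was at 25.2 CPM for Ctrl and 48.9 CPM for iKO at day 3, 1.94-fold higher (1.74 to 2.17).

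Abca1 (gene ID 11303, chromosome 4, 53030789 to 53159988) encodes the transporter that passes cholesterol and phospholipid to lipid-poor apolipoproteins. It stood at 25.8 CPM for Ctrl and 144 CPM for iKO at day 0, and at 353 and 771 CPM at day 3. The iKO library was higher at both days, 5.57-fold at day 0 (5.07 to 6.12) and 2.18-fold at day 3 (2.12 to 2.25). Over time it was 13.7-fold higher in Ctrl (12.5 to 15) and 5.37-fold higher in iKO (5.16 to 5.58). The transcript model NM_013454.3 held 54.1% of the gene's counts in Ctrl at day 0 (49.7 to 58.4) and 97.7% in iKO. At day 3 it held 95.5% in Ctrl and 93.7% in iKO. A second model, XM_006537555.3, held 24.6% in Ctrl at day 0 and at most 0.0319% in the other libraries. Counts of NM_013454.3 alone were 10.1-fold higher in iKO at day 0 (8.90 to 11.4) and 2.14-fold higher at day 3 (2.08 to 2.21). Those of XM_006537556.1, which held 21.3% in Ctrl at day 0, were 1.72-fold lower in iKO at day 0 (1.26 to 2.35). At day 3 they were 3.05-fold higher (2.68 to 3.47). The gene had 525 counts in Ctrl at day 0, and their division among the models is an estimate. The intervals do not cover the error of that division. XM_006537555.3 and XM_006537556.1 had no matched GENCODE start, so the shares do not show which start site was used.

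Abcg1 (gene ID 11307, chromosome 17, 31057694 to 31117984) encodes a transporter that passes cholesterol to particles already carrying lipid. Its level was 1.52 CPM for Ctrl and 6.74 CPM for iKO at day 0, and 17.1 and 20.6 CPM at day 3. The lowest library, Ctrl at day 0, held 31 counts. The iKO level was 4.42-fold the Ctrl level at day 0 (2.99 to 6.74) and 1.20-fold at day 3 (1.04 to 1.40). Both day 3 libraries were above both day 0 libraries, 11.2-fold in Ctrl (7.76 to 16.8) and 3.06-fold in iKO (2.52 to 3.72). With a pseudocount of 5 CPM, or of 1 on the lower FPKM scale, the day 0 log2 ratio of Abcg1 was 0.85 or 0.82, below 2-fold.

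Of 12 other measured lipid exporters of the ABC family, none reached 2-fold on the log2(CPM + 1) scale at day 0, and 2 were higher and none lower in iKO at day 3. Their median log2 ratio was 0.33 at day 0 and 0.63 at day 3. The pair above 2-fold were both low, Abca9 at 2.79 CPM for Ctrl and 18.6 CPM for iKO and Abca4 at 0.647 and 2.53 CPM. Without the pseudocount Abca4 was 3.64-fold higher at day 0 as well (1.78 to 8.17). Abcd2, a peroxisomal importer of very long chain fatty acids, was at 54.6 CPM for Ctrl and 105 CPM for iKO at day 3, 1.93-fold higher (1.79 to 2.08). Abcg4, a close relative of Abcg1, was 1.36-fold higher at day 0 (1.19 to 1.56) and 1.21-fold higher at day 3 (1.08 to 1.35). It is named here after its values were seen.

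The LXR genes themselves came short of 2-fold on the log2(CPM + 1) scale at both days. Nr1h2 (gene ID 22260, chromosome 7, 44549616 to 44553968) encodes LXR beta, the form made in most tissues. It was at 45.2 CPM for Ctrl and 50.9 CPM for iKO at day 0, and at 68.8 and 72.0 CPM at day 3. Over the 4 libraries it thus ranged from 45.2 to 72.0 CPM, with both day 3 libraries above both day 0 libraries. The iKO to Ctrl ratio was 1.13-fold at day 0 (1.03 to 1.23) and 1.05-fold at day 3 (0.969 to 1.13), an interval that includes no difference. Scaled by library totals or read from FPKM, the day 3 log2 ratio of Nr1h2 was -0.02, on the other side of 0.

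Nr1h3 (gene ID 22259, chromosome 2, 91184061 to 91202829) encodes LXR alpha, the form best known from liver and macrophages. At day 0 it had 22 counts for Ctrl against 45 for iKO, then 34 against 76 at day 3, or 1.08, 2.06, 1.69 and 4.03 CPM. The iKO libraries were above the Ctrl libraries, 1.91-fold at day 0 (1.12 to 3.34) and 2.38-fold at day 3 (1.57 to 3.68). With the pseudocount its log2 ratios were 0.56 and 0.90, short of 2-fold at both days. The gene overlaps Acp2 and Gm23390 in the annotation, and the sources used here do not say whether counting used strand. By deposited FPKM, Nr1h2 stood at 21.9 to 35.2 and Nr1h3 at 0.59 to 2.17, so LXR beta transcripts were the more abundant per length in every library.

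Of 15 measured LXR partners and coregulators, none differed by 2-fold between the genotypes on the log2(CPM + 1) scale at either day, with median log2 ratios of -0.17 at day 0 and -0.18 at day 3. Rxra, the RXR partner gene, was at 35.7 CPM for Ctrl and 37.2 CPM for iKO at day 0, and at 47.6 and 74.0 CPM at day 3, 1.56-fold higher (1.43 to 1.69). Ncor1, a corepressor that LXR recruits without ligand, was 1.26-fold lower in iKO at day 0 (1.21 to 1.31), then 1.32-fold lower at day 3 (1.27 to 1.37).

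Of 16 other measured LXR target genes, 1 was higher at day 0 and 2 at day 3, and none was lower. Their median log2 ratio was 0.31 at day 0 and 0.25 at day 3, with 9 of 16 above 0 at each day. Pltp, which moves phospholipid between lipoprotein particles, was the one higher at both days. It was at 8.40 CPM for Ctrl and 33.6 CPM for iKO at day 0, 4.00-fold higher (3.38 to 4.75), and at 23.8 and 101 CPM at day 3, 4.23-fold higher (3.83 to 4.69). Tnfaip2 was at 3.43 CPM for Ctrl and 10.9 CPM for iKO at day 3, 3.18-fold higher (2.41 to 4.24). Srebf1, the fatty acid synthesis regulator whose promoter window is shown above, was 1.24-fold higher at day 0 (1.21 to 1.28) and 1.28-fold higher at day 3 (1.25 to 1.31). Stard4, a sterol carrier that also stands on the SREBP2 list below, was 1.79-fold lower at day 0 (1.68 to 1.89) and 1.92-fold lower at day 3 (1.76 to 2.10).

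**Figure D3:**
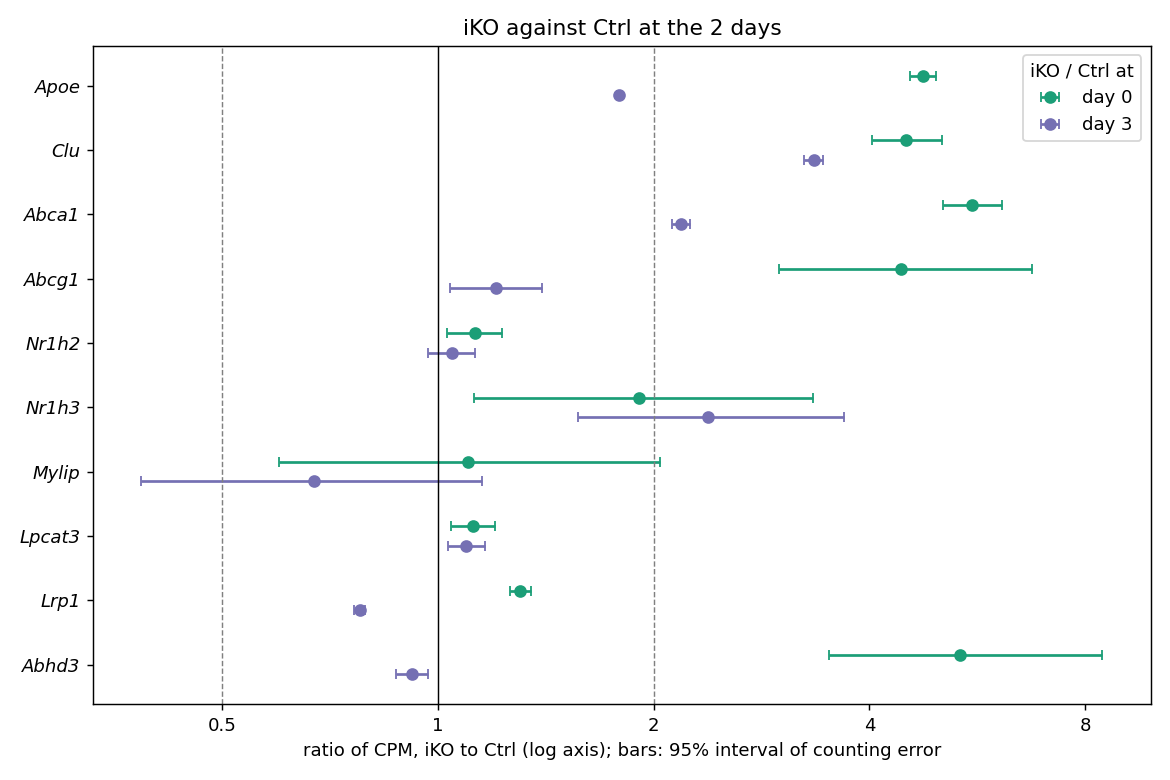
Ratio of CPM in iKO to CPM in Ctrl for the 10 genes at day 0 (green) and day 3 (purple) on a log axis, with 95% intervals of counting error only and dashed lines at 2-fold. Apoe, Clu, Abca1, Abcg1 and Abhd3 lie beyond 2-fold at day 0, and Abhd3, Lrp1 and Mylip lie below 1 at day 3, Mylip with an interval that crosses 1.

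Mylip (gene ID 218203, chromosome 13, 45389742 to 45411940), the ubiquitin ligase gene that acts on lipoprotein receptors, was near the limit of detection. At day 0 it had 22 counts for Ctrl against 26 for iKO, then 38 against 24 at day 3, or 1.09, 1.19, 1.88 and 1.25 CPM. The ratio was 1.10-fold higher in iKO at day 0 (0.60 to 2.04) and 1.49-fold lower at day 3 (0.869 to 2.59). Both intervals include no difference, so none was detectable at this depth. Vldlr, a lipoprotein receptor that MYLIP acts on, was 1.48-fold higher in iKO at day 0 (1.36 to 1.61) and 1.18-fold higher at day 3 (1.08 to 1.28). Receptors did not all go this way, and Lrp8, given below, was lower in iKO at both days.

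Lpcat3 (gene ID 14792, chromosome 6, 124663094 to 124704716) encodes an enzyme that adds polyunsaturated fatty acids to lysophospholipids. It was at 71.0 CPM for Ctrl and 79.4 CPM for iKO at day 0, and at 108 and 119 CPM at day 3. The genotype ratios were small, 1.12-fold at day 0 (1.04 to 1.20) and 1.10-fold at day 3 (1.03 to 1.16). It was 1.53-fold higher at day 3 than at day 0 in Ctrl and 1.5-fold in iKO. The gene overlaps Emg1 in the annotation.

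Lrp1 (gene ID 16971, chromosome 10, 127538157 to 127621148) encodes the large endocytic receptor that takes up APOE particles. Its levels were 273 CPM for Ctrl and 356 CPM for iKO at day 0, and 1355 and 1055 CPM at day 3. The iKO library was the higher at day 0, by 1.30-fold (1.26 to 1.35), and the lower at day 3, by 1.28-fold (1.26 to 1.31). Over time Lrp1 was 4.96-fold higher in Ctrl (4.82 to 5.11) and 2.96-fold higher in iKO (2.89 to 3.04). The gene overlaps Gm16217 and Gm51820 in the annotation. Lrpap1, the chaperone of LRP1 in the secretory pathway, was 1.14-fold higher in iKO at day 0 (1.06 to 1.22) and 1.11-fold higher at day 3 (1.05 to 1.18).

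Of 20 measured lipoprotein receptors and their partners beside Lrp1, 1 was higher and none lower in iKO at day 0, and 2 were higher and 3 lower at day 3. Lrp1b, a long relative of Lrp1, was at 2.08 CPM for Ctrl and 11.1 CPM for iKO at day 0, 5.38-fold higher (3.86 to 7.65), and 1.63-fold higher at day 3 (1.52 to 1.75). Lrp2, the megalin gene, was at 23.3 CPM for Ctrl and 74.5 CPM for iKO at day 3, 3.20-fold higher (2.88 to 3.56), and Cd36 was at 1.04 and 3.60 CPM. The lower genes included Lrp8 and Dab1. Lrp8, a receptor for APOE and reelin, was 1.55-fold lower at day 0 (1.45 to 1.65) and 3.01-fold lower at day 3 (2.78 to 3.26). Dab1, its reelin adaptor, was 1.84-fold lower at day 0 (1.69 to 2.0) and 2.12-fold lower at day 3 (1.97 to 2.29).

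Abhd3 (gene ID 106861, chromosome 18, 10644411 to 10706783) encodes a phospholipase that cleaves phosphatidylcholines with medium chain or oxidized acyl groups. At day 0 it had 26 counts for Ctrl against 149 for iKO, then 3016 against 2606 at day 3, or 1.28, 6.84, 150.0 and 138 CPM. The iKO library was 5.35-fold higher at day 0 (3.51 to 8.45) and 1.09-fold lower at day 3 (1.03 to 1.14). Both day 3 libraries stood far above both day 0 libraries, 117-fold in Ctrl (79.9 to 180) and 20.2-fold in iKO (17.1 to 24.0). In the share of counts on its main model, NM_134130.1, Ctrl at day 0 stood lowest with 38.5% (20.2 to 59.4), and the other libraries held 70.5% to 83.8%. With a pseudocount of 5 CPM the day 0 log2 ratio of Abhd3 was 0.91, below 2-fold.

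From day 0 to day 3, 6 of the 10 genes were at least 2-fold higher in Ctrl and the same number in iKO, and none was lower. By the same measure 14.6% of all genes were higher and 15.1% lower in Ctrl, and 11.2% were higher and 11.5% lower in iKO, or 29.6% and 22.7% in either direction. In both genotypes those 6 were Apoe, Clu, Abca1, Abcg1, Lrp1 and Abhd3. Nr1h2, Nr1h3, Mylip and Lpcat3 stayed within 2-fold. The comparisons over time use the same 4 libraries as those between genotypes, so the ratios are not independent of each other. The log2 ratios over time in Ctrl and in iKO were 5.60 and 4.20 for Apoe, 3.77 and 3.40 for Clu, 3.72 and 2.42 for Abca1, 2.84 and 1.48 for Abcg1, and 6.05 and 4.15 for Abhd3. Apoe, Clu, Abca1, Abcg1 and Abhd3 were thus each higher in iKO at day 0 and higher at day 3 in both genotypes, a pattern held by 0.848% of all genes (110 of 12976).

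The log2 ratio of iKO to Ctrl was lower at day 3 than at day 0 by at least 1 for 4 of the 10 genes, where 9.21% of all genes differed by that much, 5.5% below and 3.71% above. The day 3 ratio minus the day 0 ratio was -1.40 for Apoe, -1.31 for Abca1, -1.36 for Abcg1 and -1.90 for Abhd3. With FPKM plus 1, or with a pseudocount of 5 CPM, 3 of the 10 genes were lower by at least 1. In Ctrl at day 0 Abcg1 had 31 counts and Abhd3 had 26. Nr1h3 was the single gene of the 10 with a larger ratio at day 3, by 0.34. The difference was not tested.

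By deposited FPKM the order of the 10 genes shifted between the libraries. In Ctrl at day 0 Apoe (109.6), Lpcat3 (37.0), Nr1h2 (21.9), Lrp1 (17.5) and Clu (10.2) led, and Abca1 stood at 2.41. Abhd3, Nr1h3, Mylip and Abcg1 were then at 0.65, 0.59, 0.35 and 0.25. In iKO at day 3 the order was Apoe at 9745, Clu at 486, Abca1 at 71.5, Abhd3 at 71.0, Lrp1 at 67.3, Lpcat3 at 65.0 and Nr1h2 at 34.7. Abcg1, Nr1h3 and Mylip came last there, at 3.38, 2.17 and 0.40. FPKM carries no error with 1 library per group, and the neighbours Abca1, Abhd3, Lrp1 and Lpcat3 differed little in that library.

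The authors' deposited table of iKO against Ctrl at day 0 lists 103 genes, with log2 ratios of 2.60 for Abca1, 2.39 for Apoe, 2.57 for Abhd3 and 2.28 for Abcg1. Clu is not listed in it. The authors' deposited table for day 3 lists 1774 genes, with log2 ratios of 1.65 for Clu, 1.04 for Abca1 and 1.13 for Nr1h3. The log2 ratios of summed FPKM computed here, without a pseudocount, were 2.60, 2.39, 2.57 and 2.28 for the same genes at day 0 and 1.65, 1.04 and 1.13 at day 3.

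Most sterol synthesis genes lay on the other side of 0 from Abca1 and Abcg1. Of 17 measured genes of the SREBP2 sterol response, 15 were below 0 at each day, 1 of them 2-fold lower at day 0 and 5 at day 3, with medians of -0.63 and -0.92. Lss, lanosterol synthase, was 2.03-fold lower in iKO at day 0 (1.94 to 2.12), then 2.76-fold lower at day 3 (2.59 to 2.93). Idi1, isopentenyl diphosphate isomerase, was 1.73-fold lower at day 0 (1.59 to 1.90) and 3.34-fold lower at day 3 (2.86 to 3.91). Of 6 measured enzymes that make or break down oxysterols, none differed by 2-fold on the log2(CPM + 1) scale, with medians of 0.33 and 0.60. Cyp46a1, which makes the brain oxysterol 24S-hydroxycholesterol, was at 8.71 CPM for Ctrl and 18.2 CPM for iKO at day 0, and at 51.7 and 90.4 CPM at day 3. Its ratio was 2.09-fold at day 0 (1.75 to 2.51) and 1.75-fold at day 3 (1.62 to 1.89).

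Of 19 measured genes of lipoprotein remodelling and cholesterol storage, 1 was higher at day 0. At day 3, 4 were higher and 1 lower. That list shares genes with the LXR target list, Pltp and Stard4 among them. Beside Pltp, Nceh1, a cholesterol ester hydrolase, was at 26.2 CPM for Ctrl and 70.9 CPM for iKO at day 3, 2.71-fold higher (2.45 to 3.0). Lipg, endothelial lipase, was at 23.8 and 2.81 CPM there, 8.48-fold lower in iKO (6.38 to 11.5). Lcat, which esterifies cholesterol on APOE particles, was at 20.3 and 43.8 CPM, 2.15-fold higher (1.91 to 2.43), and is named here after its values were seen.

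**Figure D4:**
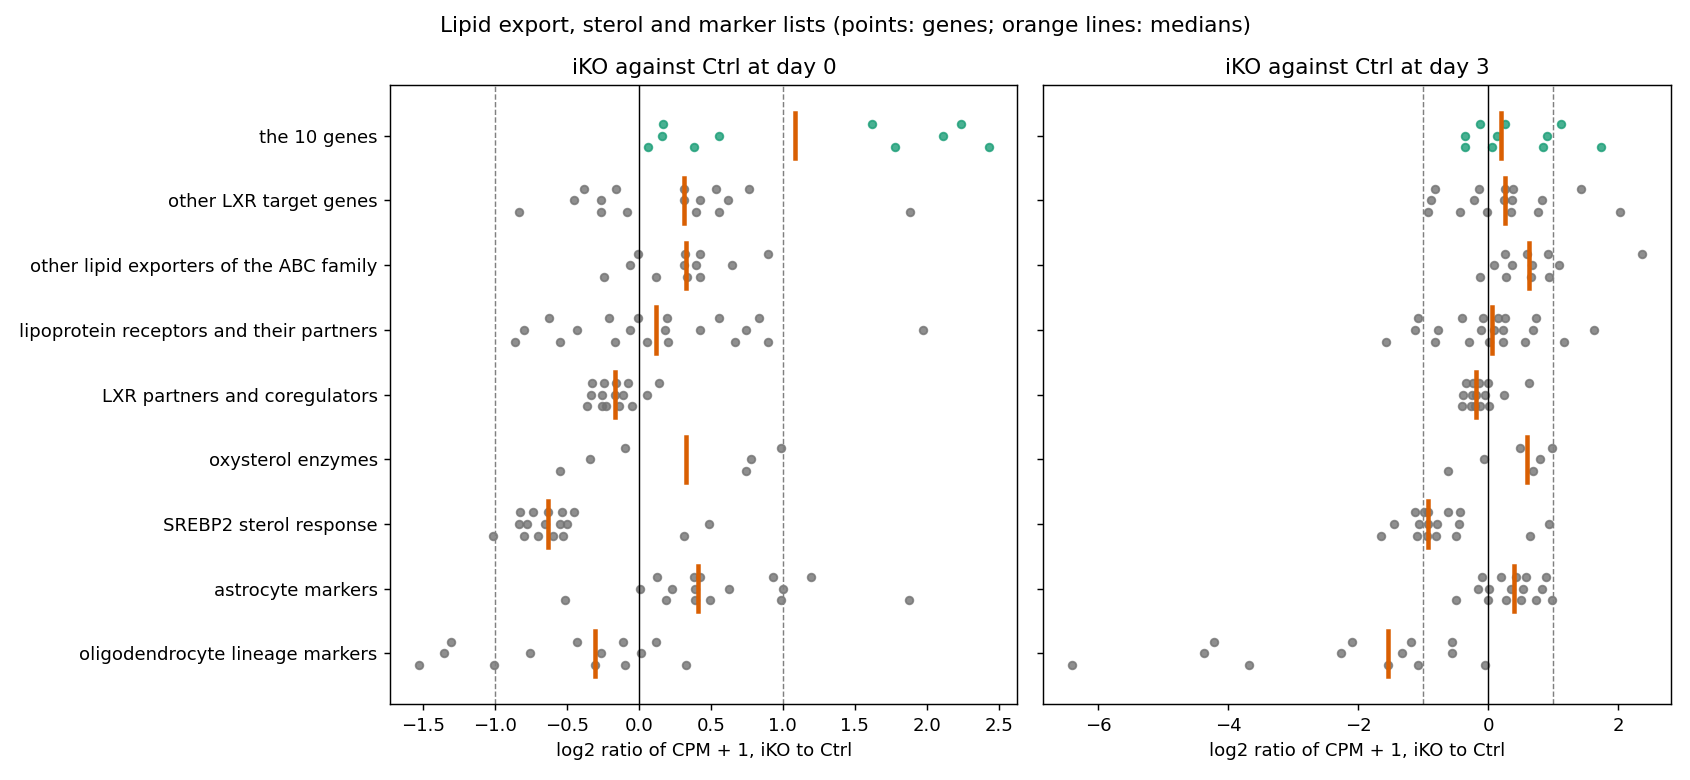
Log2 ratio of CPM plus 1 in iKO to that in Ctrl at day 0 (left) and day 3 (right), with different horizontal scales, 1 point per measured gene, green for the 10 genes and grey for the other lists, orange bars at medians and dashed lines at 2-fold. The SREBP2 list lies mostly below 0 at both days (medians -0.63 and -0.92), and the oligodendrocyte list reaches furthest below 0 at day 3 (median -1.54).

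Markers of astrocytes, the cells known for high Apoe, Clu and Abca1, moved with these genes over time. From day 0 to day 3, 14 of 16 astrocyte markers were higher in each genotype, with medians of 2.66 in Ctrl and 2.85 in iKO. Between the genotypes 3 of 16 were higher in iKO at day 0 and none at day 3, with medians of 0.41 and 0.39. At day 0, 15 lay above 0 and 1 below, and at day 3, 12 lay above and 4 below. The list summed to 4221 CPM for Ctrl and 5480 CPM for iKO at day 0, and to 21627 and 27113 CPM at day 3. Gfap had the largest genotype ratio of the list at day 0. It was at 3.93 CPM for Ctrl and 17.1 CPM for iKO at day 0, 4.35-fold higher (3.41 to 5.61), and 1.21-fold higher at day 3 (1.16 to 1.27). By deposited FPKM, Aldh1l1 went the other way at day 3, at 264 for Ctrl and 177 for iKO. The part of the astrocyte markers in the results for the 10 genes was not tested.

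Other cell types differed between the genotypes as well. Of 13 oligodendrocyte lineage markers 4 were lower in iKO at day 0 and 10 at day 3, and the list summed to between 3634 and 5182 CPM. Of 15 neuron markers 3 were higher at day 0 and 7 lower at day 3, with sums of 1072 to 1982 CPM. Of 3 ependyma markers 2 were higher at day 0 and all at day 3, with sums of 52.4 to 274 CPM. Their part in the results was not tested. Markers of microglia, another brain source of Apoe, were near 0. The 11 microglia and macrophage markers in the files summed to at most 12.1 CPM. Among them, 5 had fewer than 3 counts in every library. Endothelium markers summed to at most 4.03 CPM, and fibroblast and mural markers to 8.65 to 25.3 CPM.

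The genes whose pattern over the 4 libraries lay nearest to those of Apoe, Clu and Abca1 were sought among 10141 genes averaging 10 CPM or more, by Euclidean distance between log2(CPM + 1) values centred on each gene's mean. For Apoe the 5 nearest were Selenop, Abhd3, Gfap, C4b and Reln, at distances of 0.63, 0.78, 0.82, 0.88 and 1.00. Selenop, which encodes a secreted selenium carrier, was at 20.4, 99.8, 750 and 1116 CPM in Ctrl and iKO at day 0 and Ctrl and iKO at day 3. For Clu they were Cyp4f14, Pla2g7, Car10, Osmr and Abca1, at 0.47, 0.58, 0.58, 0.64 and 0.71. Pla2g7, the gene of a phospholipase carried on lipoproteins, was at 72.4, 192, 952 and 3136 CPM in the same order. For Abca1 they were Ahnak, Cyp4f14, H2ac18, Abat and Clu, at 0.60, 0.63, 0.65, 0.68 and 0.71. H2ac18 shares sequence with other H2A histone genes, so its counts are uncertain. In Ctrl at day 0, Cyp4f14, Osmr and H2ac18 were at 0.248, 0.344 and 0.772 CPM, below the pseudocount of 1. Abhd3 and Reln, named for Apoe, were at 1.28 CPM there. The pseudocount understates ratios of such low genes, so their places in these orders depend on it. The orders were not tested with another pseudocount. A pattern over 4 libraries is a coarse one, and the distances describe these libraries alone.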

How the data were processed

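Total RNA libraries, 1 for each of 4 groups named in the sample titles, were prepared with a kit from BGI, per the labels' protocols. HISAT, Bowtie2, StringTie and the mm10 build are named without versions, per the submitters' processing notes. Per RefSeq transcript, the authors deposited expected counts, which are estimates, made with a tool that no source used here names. The deposited expression value has no unit in its header and was taken as FPKM, since value times length over count lay within 1.25-fold of its median for 86.4% to 87.1% of the transcripts checked. The authors' deposited tables give log2 ratios and an FDR (adjusted p-value) per the file headers, and each compares 2 libraries. All deposited columns of per-sample values were used.

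Expected counts were summed per gene and rounded. Gene IDs were matched to symbols through a RefSeq table of GRCm38.p6 (17498 IDs) or the authors' tables (19), and 104 had none. Library sizes were scaled by TMM in edgeR 4.0.16 under R 4.3.3, with factors of 0.962 to 1.06. The log2 ratio was that of CPM plus a pseudocount of 1, which understates ratios of low genes, among genes averaging 1 CPM or more, which left out 4645. Printed folds are ratios of CPM with exact conditional (Clopper-Pearson) 95% intervals from scipy 1.17.1. They cover counting error only, and reads are not independent molecules. As alternatives, the pseudocount was set to 0.1 or 5 CPM, the minimum was dropped or set to 5 CPM, TMM was replaced by library totals or by size factors from DESeq2 1.42.0 or computed without ribosomal protein and histone genes, and FPKM as deposited was used with a pseudocount of 1. Poisson counts, which vary by counting error alone, were simulated for iKO against Ctrl at day 0 (12743 genes). Of the intervals, 95.4% held the simulated ratio. The 2-fold threshold was passed by 101 of 103 genes with a 4-fold difference and 0 of 12543 without one. The simulation held no variation between cultures, so it gives no rate of false calls for these libraries.

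The genes, gene lists and rules were chosen with earlier results of these data known. Named genes are the 10 genes, the 3 genes of each other list with the largest ratio of iKO to Ctrl at each day, partners fixed by known function (Vldlr, Rxra, Srebf1, Lrpap1 and Lrp8) and, for Apoe, Clu and Abca1, the 5 genes with the nearest pattern. The text gives values for part of them, and 1 gene is not reported here. The lists are LXR partners and coregulators, other LXR targets, other apolipoproteins, lipoprotein receptors and their partners, ABC exporters, lipoprotein remodelling, oxysterol enzymes, the SREBP2 response, lysophospholipid acyltransferases, the ABHD family, Apoe neighbours, and markers of astrocytes, oligodendrocyte lineage, neurons, neural stem cells, microglia, endothelium, fibroblast and mural cells, and ependyma. Promoter and start site sequences came from the RefSeq promoter table and GENCODE.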

Additional observations from a re-analysis of the deposited data

Results flagged for a closer look

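For 3 of the 10 genes the ratio of iKO to Ctrl lay above 0 at day 0 and below 0 at day 3 on the log2 scale, and the difference between the days was not tested. Day 3 minus day 0 was -0.42 for Mylip, whose ratios were 0.07 and -0.36 and whose intervals include no difference at either day. It was -0.74 for Lrp1, whose ratios were 0.38 and -0.36. It was -1.90 for Abhd3, whose ratios were 1.78 and -0.12.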

How the results depend on the processing

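No paired analysis was possible because each group is 1 library, and leaving out a library leaves no comparison. Under 8 alternatives of scaling, value, pseudocount and minimum level, 38 of 40 ratios of the 10 genes (4 comparisons each) kept their sign, and 36 stayed on the same side of 2-fold where they had a value. Exceptions in sign were Nr1h2 at day 3, which was -0.02 with library totals, and Mylip over time in iKO. Exceptions at 2-fold were Abcg1 at day 0 (lowest 0.82) and over time in iKO (0.99), both from FPKM with a pseudocount of 1, a larger addition on that scale for this gene, Abhd3 at day 0 (0.91 with a pseudocount of 5 CPM) and Nr1h3 at day 3 (1.20 with a pseudocount of 0.1 CPM). With a pseudocount of 5 CPM, 3 of the 10 genes in place of 5 were at least 2-fold higher at day 0. The genes whose log2 ratio was lower at day 3 by at least 1 numbered 3 in place of 4 with that pseudocount or with FPKM plus 1. A minimum of 5 CPM removed Nr1h3 and Mylip. Of all genes, the share higher at day 0 was 5.44% with a pseudocount of 0.1 CPM and 0.855% with one of 5 CPM, and at day 3 it was 3.68% with FPKM plus 1 and 3.32% with a pseudocount of 5 CPM. Over time in iKO, 7.18% were higher and 11.4% lower with FPKM plus 1. With library totals the all-gene median moved from -0.06 to 0.06 at day 0 and from -0.01 to -0.14 over time in iKO. The response element search gave 1 match among 7 genes with up to 3 differences, 0 with an exact match, 0 with up to 2 differences and 5 with up to 4, where 0.0152%, 2.57% and 70.6% of all promoters matched with 0, 2 and 4. Depth limits Mylip, Nr1h3 and, at day 0, Abcg1 and Abhd3, with 22 to 31 counts in the lowest library.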

Other observations

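Relatives of Lpcat3 and Abhd3 were looked at by family. Of 13 measured lysophospholipid acyltransferases, none reached 2-fold between the genotypes on the log2(CPM + 1) scale, with medians of -0.06 at day 0 and 0.25 at day 3. Without the pseudocount Mboat1 was 3.08-fold higher in iKO at day 3 (1.77 to 5.59), from 18 counts for Ctrl and 52 for iKO. Agpat3, which adds polyunsaturated acyl groups to lysophosphatidic acid, was at 287 CPM for Ctrl and 376 CPM for iKO at day 0, and at 619 and 1151 CPM at day 3, 1.86-fold higher (1.82 to 1.90). Of 17 other genes of the ABHD hydrolase family, 1 was higher on that scale at day 0 and none at day 3, with medians of -0.03 and 0.35. That gene was Abhd4, whose enzyme acts on N-acyl phospholipids, at 204 CPM for Ctrl and 494 CPM for iKO at day 0, 2.42-fold higher (2.34 to 2.51). At day 3 Abhd4 was 1.58-fold higher (1.55 to 1.61).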
